A study of Mus musculus with 9 samples.

Results

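The small leucine-rich proteoglycans (SLRPs) are secreted matrix proteins built from a leucine-rich repeat core, most of which carry glycosaminoglycan chains. The 10 genes described here are Lum, Dcn, Bgn, Fmod, Omd, Ogn, Aspn, Prelp, Podn and Chad, taken by symbol from the 24063 symbols of the deposited RNA-seq tables. The set was chosen by the higher CPM of Lum and Dcn in 1C-MIM, the other 8 genes joining as relatives, so the 1C-MIM differences of Lum and Dcn are given as descriptions with no test. Of the 10 genes, 9 passed the filter on low counts and Chad did not, and 14006 genes passed in all.

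All libraries came from C2C12, an established mouse myoblast line (genotype WT) that fuses into muscle fibres at low serum. Differentiation was in DMEM with 2% FBS, sampled at day 3, in each of the 3 groups of 3 libraries. Control fibres had normal medium, 1C-MIM fibres (One-Carbon Metabolite Induced Medium) had 6 added metabolites of the one-carbon network, and scramble fibres had 6 added metabolites outside that network. The labels name neither the metabolites nor their doses, and C2C12 is a single line without the other cells of muscle tissue. Nothing says that libraries of a group were separate cultures, so the p-values cover the spread among these libraries alone, and that spread may be technical.

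SLRPs bind collagen and steer the width and spacing of fibrils, and several also hold growth factors of the TGF-beta family or act on cell surface receptors. Class I (Dcn, Bgn and Aspn) is known for chondroitin or dermatan sulfate chains, which Aspn lacks. Class II (Lum, Fmod, Prelp and Omd) is known for keratan sulfate or sulfated tyrosines, Ogn is of class III, and Chad and Podn belong to the non-canonical classes. In muscle these proteins form part of the connective tissue around fibres, and Dcn is known to bind myostatin as well as TGF-beta.

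Aspn, Omd and Ogn lie beside each other on chromosome 13 on the same strand, and all 3 rose with 1C-MIM against control by different amounts, so the 250 bases before each gene's start are shown. They come from RefSeq on GRCm38.p6, while the expression tables use GRCm39. The Aspn window is chr13:49544193-49544442, the Omd window chr13:49582212-49582461 and the Ogn window chr13:49607765-49608014, all on the plus strand and written 5′ to 3′. Capitals mark the E-box (CANNTG), the motif that myogenic basic helix-loop-helix factors bind, and the Smad box (CAGAC), each searched on both strands.
Aspn: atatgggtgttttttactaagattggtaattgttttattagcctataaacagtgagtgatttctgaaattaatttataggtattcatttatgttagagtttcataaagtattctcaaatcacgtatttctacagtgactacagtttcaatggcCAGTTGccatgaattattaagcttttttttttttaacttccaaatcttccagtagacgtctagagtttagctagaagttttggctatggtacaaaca
Omd: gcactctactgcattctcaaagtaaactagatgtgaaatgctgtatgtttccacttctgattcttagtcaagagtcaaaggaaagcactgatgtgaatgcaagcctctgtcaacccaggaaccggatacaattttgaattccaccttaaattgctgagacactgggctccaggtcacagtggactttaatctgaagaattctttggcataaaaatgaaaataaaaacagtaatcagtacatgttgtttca
Ogn: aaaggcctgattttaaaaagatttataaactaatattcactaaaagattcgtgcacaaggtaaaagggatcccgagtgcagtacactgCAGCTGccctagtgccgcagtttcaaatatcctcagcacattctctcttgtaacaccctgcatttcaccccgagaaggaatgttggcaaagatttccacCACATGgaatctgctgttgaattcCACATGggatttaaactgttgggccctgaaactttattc
The Aspn window held 1 E-box, the Ogn window 3 and the Omd window 0, and none of the 3 held the Smad box. Over all 32851 promoter windows of this length, 66.2% held an E-box and 42.2% the Smad box, so an E-box match is common. These matches describe letters and were not tested as binding sites. A promoter window was found for 8 of the 10 genes, and Lum and Dcn had none.

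Decorin and asporin, both of class I, were higher in every 1C-MIM library than in any other library, and biglycan was not. Levels here are in CPM, counts scaled to the normalized library size, and libraries are given in the order of replicates 1, 2 and 3. Dcn, which binds collagen fibrils and TGF-beta, was at 193, 196 and 204 CPM in control, 434, 438 and 441 CPM in 1C-MIM, and 214, 231 and 227 CPM in scramble. The 1C-MIM libraries lay far above both other groups with almost no spread, a log2 fold change (± SE) of 1.15 ± 0.05 against control and 0.97 ± 0.05 against scramble. Both deposited Dcn transcripts gave a log2 fold change of 1.15 against control. In bulk RNA, a change in the share of cells that make a transcript and a change in its amount per cell cannot be told apart, here and below.

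Aspn, which binds collagen and is known to inhibit TGF-beta, was at 47.95, 47.5 and 49.4 CPM in control, 133, 199 and 202 CPM in 1C-MIM, and 53.5, 59.5 and 56.7 CPM in scramble. The lowest 1C-MIM library, replicate 1, was still above every control and scramble library. By edgeR's quasi-likelihood test with Benjamini-Hochberg adjustment over all tested genes, Aspn rose 3.69-fold against control (log2 fold change 1.88 ± 0.14, adjusted p = 1.1e-05) and by 1.66 ± 0.14 on the log2 scale against scramble (adjusted p = 2.51e-05). Its 2 deposited transcripts had the same counts and cannot be told apart.

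Bgn, the class I relative of decorin known to signal through Toll-like receptors when released, was at 2681, 2845 and 2875 CPM in control, 2878, 2571 and 2447 CPM in 1C-MIM, and 3141, 3038 and 3204 CPM in scramble. The 1C-MIM libraries overlapped the control libraries and lay below all scramble libraries. Bgn fell against scramble (log2 fold change -0.25 ± 0.07, edgeR adjusted p = 0.0154) and did not pass the test against control (-0.09 ± 0.07, adjusted p = 0.33). The call against scramble was lost without 1C-MIM replicate 2 (adjusted p = 0.0616), 1C-MIM replicate 3 (0.0719) or scramble replicate 3 (0.0573). Replicate 1 was the highest of the 1C-MIM libraries, and with the 3 libraries numbered 1 left out Bgn was also lower against control (-0.19 ± 0.04, adjusted p = 2e-04).

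**Figure D1:**
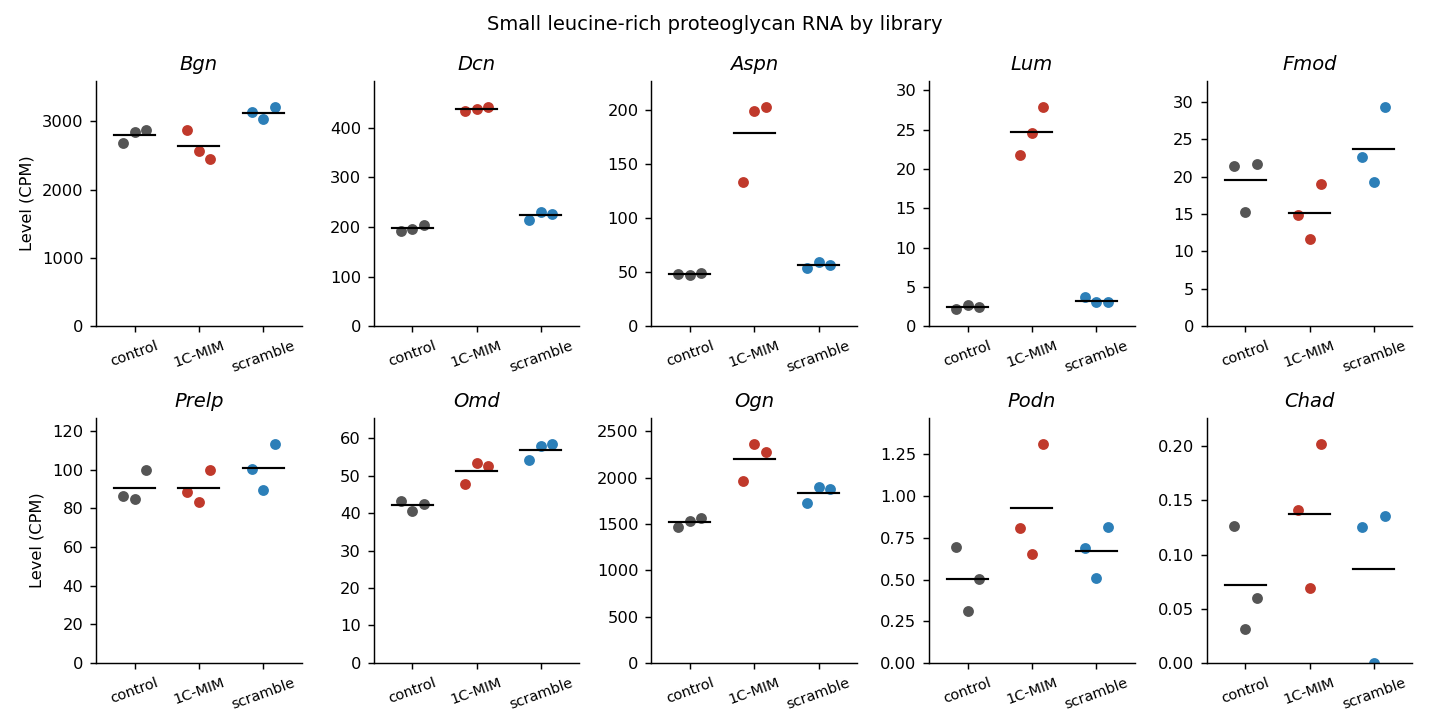
Level of each of the 10 proteoglycan genes in CPM (vertical axes, each from 0 and with its own range) in the 3 control, 3 1C-MIM and 3 scramble libraries; points are libraries in replicate order and lines are group means. The 1C-MIM libraries of Lum (21.8 to 27.8 CPM), Dcn (434 to 441 CPM) and Aspn (133 to 202 CPM) stand above all other libraries, while those of Prelp and Podn overlap both other groups.

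In class II, lumican was low in control and scramble and about an order of magnitude higher in 1C-MIM, osteomodulin rose by a small amount, and the other 2 members did not rise. Lum, known for the spacing of collagen fibrils in the cornea and other connective tissue, was at 2.17, 2.69 and 2.41 CPM in control, 21.8, 24.6 and 27.8 CPM in 1C-MIM, and 3.66, 3.07 and 3.02 CPM in scramble. These levels rest on 69 to 87 counts a library in control, 618 to 827 in 1C-MIM and 89 to 117 in scramble. Its log2 fold change was 3.35 ± 0.13 against control and 2.92 ± 0.12 against scramble, and no 1C-MIM library came near the others.

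Omd, a proteoglycan first known from bone matrix, was at 43.3, 40.7 and 42.4 CPM in control, 47.9, 53.3 and 52.5 CPM in 1C-MIM, and 54.1, 58.0 and 58.5 CPM in scramble. The 3 groups did not overlap, and scramble rather than 1C-MIM was the highest. Omd rose in 1C-MIM against control (log2 fold change 0.28 ± 0.06, edgeR adjusted p = 0.00214). Against scramble its log2 fold change was -0.15 ± 0.06 and missed the threshold (adjusted p = 0.0509), while it passed under 8 of 22 alternatives, among them without control replicate 1 (adjusted p = 0.0305) or scramble replicate 1 (0.0357).

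Fmod, which binds collagen and helps to place its cross-links, was at 21.5, 15.3 and 21.7 CPM in control, 14.9, 11.7 and 18.9 CPM in 1C-MIM, and 22.6, 19.3 and 29.3 CPM in scramble. The 1C-MIM libraries overlapped control and lay just below scramble, and in each group replicate 2 was the lowest. Fmod fell against scramble (log2 fold change -0.64 ± 0.22, edgeR adjusted p = 0.0384) and did not pass the test against control (-0.36 ± 0.22, adjusted p = 0.207). With replicate number as a block in the fit, it passed against control (-0.37 ± 0.08, edgeR adjusted p = 0.0028). The call against scramble held under 13 of 22 alternatives and was lost without control replicate 1 (adjusted p = 0.0685), 1C-MIM replicate 1 (0.0957) or 2 (0.109), or scramble replicate 1 (0.0711) or 3 (0.12).

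Prelp, which links basement membranes to collagen, was at 86.6, 84.9 and 99.96 CPM in control, 88.4, 83.4 and 99.7 CPM in 1C-MIM, and 100.6, 89.3 and 113 CPM in scramble. All 3 groups overlapped, and replicate 3 was the highest in each. Its log2 fold change was 0.00 ± 0.10 against control (edgeR adjusted p = 1) and -0.16 ± 0.10 against scramble (adjusted p = 0.206). With replicate number as a block in the fit, Prelp passed against scramble (-0.16 ± 0.04, edgeR adjusted p = 0.00846). Prelp shares 350 exon bases with the antisense gene Gm15851 in the reference annotation. The sources used here do not state whether strand was used in counting.

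Outside classes I and II, osteoglycin rose and the remaining genes were near the limit of detection. Ogn, also called mimecan, regulates collagen fibril growth. It was at 1466, 1529 and 1560 CPM in control, 1964, 2364 and 2277 CPM in 1C-MIM, and 1727, 1896 and 1875 CPM in scramble. The groups did not overlap, with scramble between the other two. Ogn rose 1.45-fold against control (log2 fold change 0.54 ± 0.08, edgeR adjusted p = 0.00023) and by 0.26 ± 0.08 on the log2 scale against scramble (adjusted p = 0.016). The second call was lost without 1C-MIM replicate 2 (adjusted p = 0.0751), 1C-MIM replicate 3 (0.0596) or scramble replicate 1 (0.0621).

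Podn, a proteoglycan known from smooth muscle and kidney, had 22, 10 and 17 counts in control, 23, 19 and 39 in 1C-MIM, and 22, 15 and 24 in scramble. The groups overlapped, with log2 fold changes of 0.88 ± 0.36 against control (edgeR adjusted p = 0.0648) and 0.46 ± 0.35 against scramble (adjusted p = 0.3). The first passed without control replicate 1 (1.17, adjusted p = 0.0255) or 1C-MIM replicate 2 (1.08, adjusted p = 0.0459). It also passed with replicate number as a block in the fit (0.88, edgeR adjusted p = 0.0276). Chad, a cartilage protein that binds integrin and collagen, had 4, 1 and 2 counts in control, 4, 2 and 6 in 1C-MIM, and 4, 0 and 4 in scramble. At this depth no difference of Chad was detectable, and it was not tested.

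Counted over the set, 3 of the 7 tested members other than Lum and Dcn passed the test in 1C-MIM against control, all of them higher (Aspn, Ogn and Omd). Among all tested genes 47.3% passed, 22.9% as higher and 24.3% as lower, so the members' share of 42.9% is near the background and is not a result about the set. Against scramble, 4 of the 7 passed, 2 higher (Aspn and Ogn) and 2 lower (Bgn and Fmod), with 46% called among all tested genes, 22.9% higher and 23.2% lower. Against scramble, 1 of the 7 passed without 1C-MIM replicate 2 (Aspn), with 38% of all tested genes called. Without 1C-MIM replicate 3 or without scramble replicate 3, 2 passed, with 37.9% and 37.7% of all tested genes called. With the 3 libraries numbered 1 left out, 5 of the 7 passed against control, as Podn was then higher and Bgn lower, while the share of all tested genes called was 56.5%. The 2 comparisons share the 1C-MIM libraries, and their values are side by side rather than independent.

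**Figure D2:**
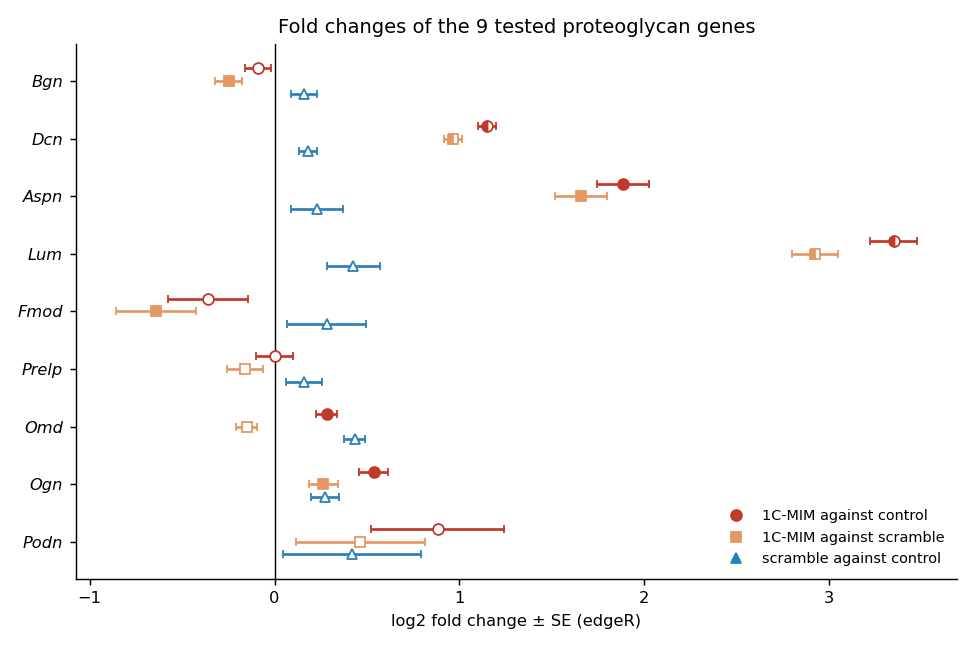
Log2 fold change ± SE (edgeR, horizontal axis) of the 9 tested proteoglycan genes in 3 comparisons; filled symbols have an adjusted p below 0.05, open symbols do not, and the half-filled 1C-MIM symbols of Lum and Dcn carry no test. Lum, Dcn, Aspn and Ogn lie to the right of 0 in both 1C-MIM comparisons, Fmod and Bgn to the left in both, and all 9 scramble symbols are open and to the right of 0.

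The scramble medium was tested on the same genes to see how far the added metabolites as such moved them. No member passed the test in scramble against control, and neither did any of the 14006 genes (0% called), with 482 genes or 3.44% at an unadjusted p below 0.05, and with 30 genes called by DESeq2 and 0 by limma-voom. All 9 tested members nevertheless had log2 fold changes above 0, where 47.7% of all tested genes did. In 6 of the 9 (Lum, Dcn, Bgn, Omd, Ogn and Aspn) every scramble library was above every control library, while 4.83% of all tested genes showed this. Lum and Dcn were noticed in a comparison that uses the same control libraries, and the set was not tested as a whole.

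The log2 fold change of Omd in scramble against control was 0.43 ± 0.06 (edgeR unadjusted p = 1.19e-05, adjusted p = 0.167). Lum stood at 0.43 ± 0.14, Podn at 0.42 ± 0.38, Fmod at 0.28 ± 0.21, Prelp at 0.16 ± 0.10, Ogn at 0.27 ± 0.08, Aspn at 0.23 ± 0.14, Dcn at 0.18 ± 0.05 and Bgn at 0.16 ± 0.07. Without control replicate 1, Omd passed (0.45, adjusted p = 0.0276). With the 3 libraries numbered 1 left out, 4 members passed, namely Omd (0.49, adjusted p = 0.000103), Ogn (0.29, 0.000263), Aspn (0.26, 0.0118) and Dcn (0.20, 0.0125), among 96 genes called in all. By DESeq2, Dcn and Ogn passed (adjusted p = 0.0469 for each). As Dcn was noticed in a comparison that uses these control libraries, its p-values here are not an independent test.

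Levels per transcript length, in the deposited TPM, put biglycan first in every group. In control the means (SD, n = 3) were 1626 ± 21.1 TPM for Bgn, 829 ± 13.7 for Ogn and 145 ± 4.0 for Dcn. Then came Prelp at 34.9 ± 3.1 TPM, Omd at 33.4 ± 2.1 and Aspn at 28.7 ± 1.0, and only Prelp and Omd overlapped among neighbours in this order. Fmod (9.49 ± 1.95 TPM), Lum (1.62 ± 0.13), Podn (0.217 ± 0.089) and Chad (0.0614 ± 0.0434) closed it.

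In 1C-MIM the order differed from control at Aspn, at Lum and between Omd and Prelp. Aspn, at 107 ± 23.0 TPM, stood above Omd (41.2 ± 2.2) and Prelp (35.3 ± 3.2), which changed places but again overlapped. Lum, at 16.8 ± 2.0 TPM, stood above Fmod (7.46 ± 1.78) with no overlap, the reverse of control and scramble. Bgn was at 1550 ± 139 TPM, Ogn at 1219 ± 111 and Dcn at 326 ± 1.4. In scramble the order was that of control but for Omd (45.003 ± 1.19 TPM), which stood above Prelp (38.9 ± 4.6) without overlap, while Prelp and Aspn (33.6 ± 1.3) overlapped.

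**Figure D3:**
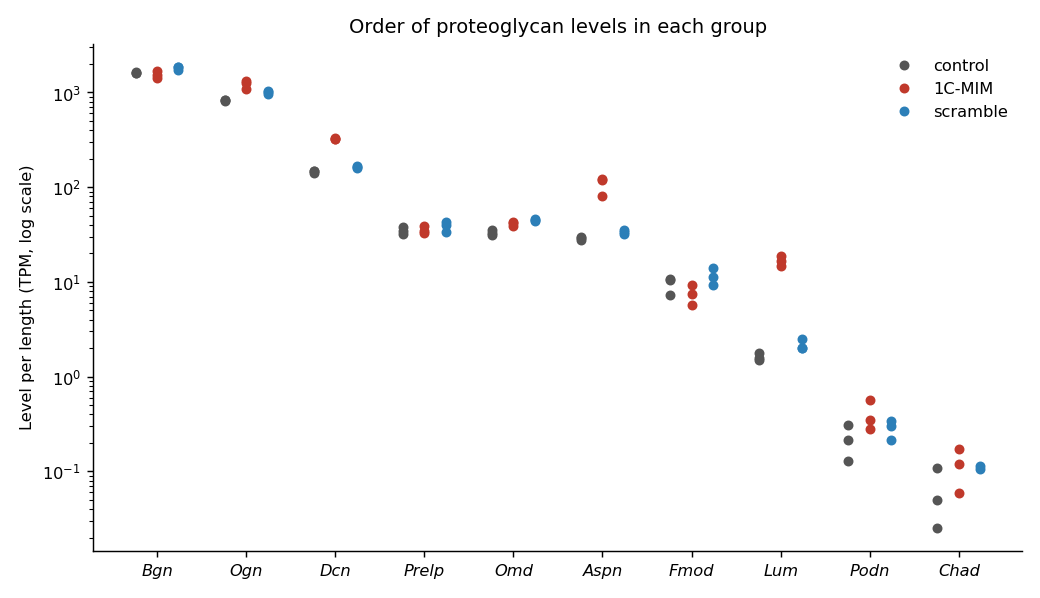
Level of the 10 proteoglycan genes per transcript length (TPM, log vertical axis) in each library, ordered by the control mean; points are libraries coloured by group, and the 1 library with Chad at 0 is not drawn. Bgn and Ogn lie highest in every group, and the 1C-MIM points of Lum lie above those of Fmod (16.8 against 7.46 TPM on average).

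The 10 genes together had 2709 ± 42.6 TPM in control, 3304 ± 54.3 TPM in 1C-MIM and 3110 ± 48.65 TPM in scramble. Of this sum, Bgn made up 59.7%, 60.4% and 59.9% in the control libraries, 51.6%, 44.96% and 44.2% in 1C-MIM, and 59.8%, 57.0% and 58.3% in scramble. The 1C-MIM libraries did not overlap the others, with replicate 1 nearest to them. In the same order of groups, Dcn made up 5.36% ± 0.08, 9.88% ± 0.20 and 5.29% ± 0.18, and Ogn 30.6% ± 0.1, 36.9% ± 3.2 and 32.1% ± 1.3. Aspn went from 1.06% ± 0.03 in control to 3.25% ± 0.70 in 1C-MIM, and Lum from 0.0598% to 0.508%, so that even after the difference Lum was a minor transcript of the set.

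Across the 9 libraries, log2 CPM of Lum and Dcn had a Pearson correlation of 0.992, Lum and Aspn 0.984, and Dcn and Aspn 0.982. Ogn followed the same libraries less closely, at 0.902 with Aspn and 0.864 with Lum, and Omd was at 0.266 with Lum. Bgn and Fmod ran the other way, at -0.611 and -0.615 with Lum. Fmod and Prelp, neighbours on chromosome 1, were at 0.827 with each other. These values are descriptions over 9 libraries that share their group differences, and for Lum, Dcn and Aspn they mostly restate the distance of 1C-MIM from the rest. Among 10451 genes with at least 5 CPM, those most like Lum were Cd82, Plcb1, Abhd4, Olfml2b and Notch3 (correlations 0.999 to 0.996), and those most like Dcn were Maged1, Ccdc23, Abhd8, Mtch1 and Olfml2b (0.996 to 0.994). Olfml2b, an olfactomedin-like matrix protein, was on both lists, with means of 160 CPM in control, 475 CPM in 1C-MIM and 192 CPM in scramble.

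Many SLRP genes sit in runs on the chromosomes, in RefSeq's gene order on GRCm38. On chromosome 10 the run is Dcn, Lum, Kera and Epyc. Kera, the cornea's keratocan, had 4, 2 and 1 counts in 1C-MIM and 0 counts in all 6 control and scramble libraries, and Epyc, the cartilage protein epiphycan, had 0 to 3 counts in every library. Thus the strongest difference of the set lay beside a pair of genes at the limit of detection. The next gene after Epyc, Ccer1, was not tested.

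On chromosome 13 the run is Ecm2, Aspn, Omd and Ogn, and all 4 rose with 1C-MIM against control, by log2 fold changes of 0.49, 1.88, 0.28 and 0.54. Among all tested genes 22.9% were called higher in this comparison, and the run was not tested as a whole. Against scramble, Ecm2, Aspn and Ogn were called higher, while Omd, at -0.15, was not called. The genes on either side also rose against control. Nol8, a nucleolar protein gene, rose by 0.46 (edgeR adjusted p = 9.24e-05). Ippk, an inositol phosphate kinase gene, rose by 0.21 (adjusted p = 0.0183), a call lost without control replicate 2 or 3 (0.0704 each) or 1C-MIM replicate 1 (0.0653). Cenpp, a centromere protein gene that spans this stretch, fell (-0.65, adjusted p = 0.0016), and it shares 7 exon bases with Aspn on the opposite strand. On chromosome 1, Optc, Prelp and Fmod were not called against control, while the genes beside them, Atp2b4 (0.35, adjusted p = 0.00132) and Btg2 (0.36, adjusted p = 0.00325), rose. Within each of the 3 runs the differences varied in size from gene to gene.

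**Figure D4:**
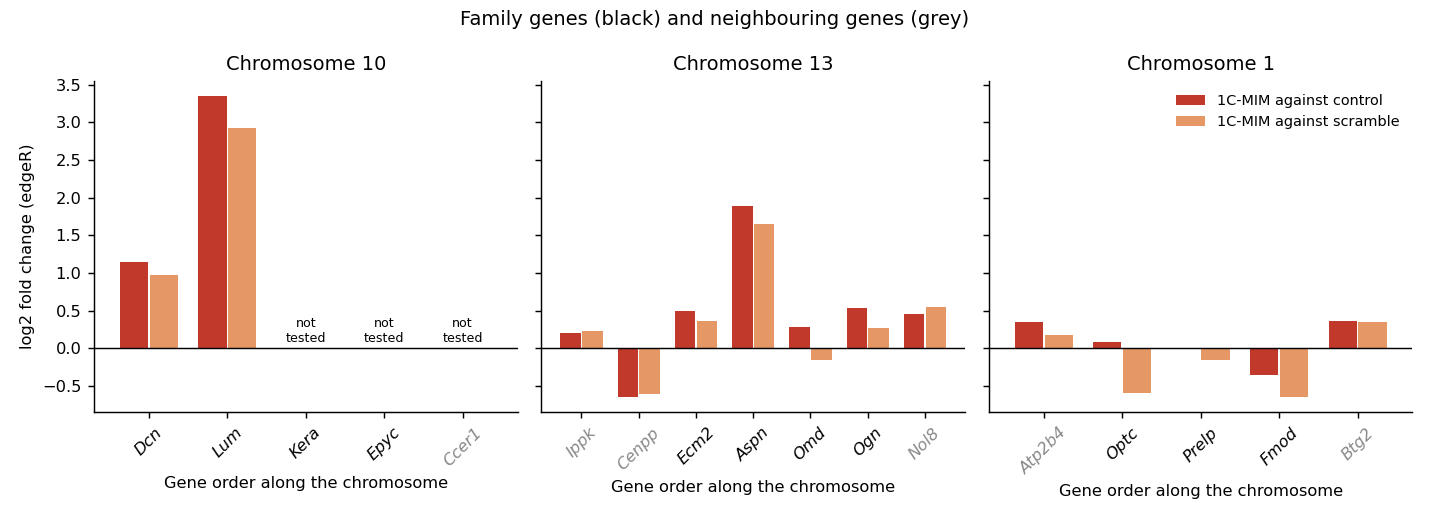
Log2 fold change (edgeR, vertical axis) of SLRP genes (black names) and of the genes beside or inside each run (grey names) in gene order on chromosomes 10, 13 and 1, for 1C-MIM against control and against scramble; bars start at 0. Lum reaches 3.35 and Aspn 1.88, with smaller bars on both sides of Aspn and no tested gene after Lum.

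Of the 8 other SLRP genes, 5 were tested, with 2 higher and 1 lower in 1C-MIM against control. This share, 60% of 5 genes, stands beside a background of 47.3% and is not a result about these relatives. The call of Chadl, given below, held under 13 of 22 alternatives. Podnl1, a relative of podocan, was at 47.3, 43.3 and 51.3 CPM in control, 32.9, 29.1 and 24.8 CPM in 1C-MIM, and 48.8, 44.99 and 53.8 CPM in scramble. All 1C-MIM libraries were below all others, and Podnl1 fell against control (log2 fold change -0.71 ± 0.10, edgeR adjusted p = 0.000325) and scramble (-0.76 ± 0.11, adjusted p = 0.000209). Ecm2, a matrix protein gene beside Aspn, was at 15.2, 13.4 and 13.2 CPM in control, 20.2, 20.5 and 18.1 CPM in 1C-MIM, and 15.8, 15.9 and 14.0 CPM in scramble. It rose against control (0.49 ± 0.09, adjusted p = 0.000829) and scramble (0.36 ± 0.09, adjusted p = 0.00533), with no overlap.

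Chadl, a relative of chondroadherin, passed against control (0.32 ± 0.11, edgeR adjusted p = 0.0355), but not without control replicate 2 (0.123) or 3 (0.08) or without 1C-MIM replicate 1 (0.0559), 2 (0.0511) or 3 (0.126), and it shares 157 exon bases with L3mbtl2 on the opposite strand. Tsku had a log2 fold change of 0.22 ± 0.09 (adjusted p = 0.0699), which passed without 1C-MIM replicate 2 (0.0442), and Optc of 0.09 ± 0.43 (adjusted p = 0.884). Nyx, Kera and Epyc had at most 6 counts in any library and were not tested.

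The enzymes that build SLRP sugar chains changed in both directions. Of 21 tested genes of chondroitin and dermatan sulfate synthesis, 7 were higher and 4 lower in 1C-MIM against control, with a median log2 fold change of 0.00 (all tested genes -0.01). The sulfotransferases Chst11 (0.69 ± 0.06, edgeR adjusted p = 5.84e-06) and Chst15 (0.59 ± 0.12, adjusted p = 0.0029) rose, as did Csgalnact1, which starts chondroitin chains (0.60 ± 0.09, adjusted p = 0.000304), and Chpf2, which extends them (0.24 ± 0.05, adjusted p = 0.00166). Pxylp1, Chst12, Chpf and Dse were the 4 lower genes, and 1 gene was called lower without control replicate 3 and 2 without 1C-MIM replicate 2. Of 9 genes of keratan sulfate synthesis, 2 rose, the galactosyltransferases B4galt4 (0.74 ± 0.08) and B4galt3 (0.23 ± 0.06), and 2 fell, the chain extender B3gnt2 (-0.56 ± 0.08) and the sulfotransferase Chst1 (-1.43 ± 0.15), which went from 31.0 to 11.5 CPM. With the 3 libraries numbered 1 left out, 3 genes of this list were called higher and 5 lower.

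Genes for the collagen fibrils that SLRPs coat went in both directions. Of 22 genes of collagen fibril formation, 9 were higher and 5 lower (median 0.11). Col3a1 (fibrillar collagen III) rose from 6193 ± 445 to 15389 ± 178 CPM (log2 fold change 1.31 ± 0.07, edgeR adjusted p = 7.66e-07) and Col5a2 by 0.80 ± 0.07, while the cross-linking enzymes Lox (-0.76 ± 0.08) and Loxl4 (-1.22 ± 0.15) fell. Loxl3, Col14a1 and Adamts14 were the other lower genes.

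Of 11 genes for growth factors that SLRPs bind and for the latent TGF-beta binding protein (Ltbp) family, 3 were higher and 6 lower (median -0.18). Bmp6 rose from 0.31 to 3.46 CPM (3.47 ± 0.37, edgeR adjusted p = 3.27e-05) and Tgfb1 by 0.30 ± 0.05, and Tgfb2 was the third higher gene. Ltbp2, a member of that family by name, fell from 509 to 266 CPM (-0.93 ± 0.09), and Ctgf from 88.6 to 26.6 CPM (-1.74 ± 0.21).

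Of 14 receptor genes, 7 were higher and 2, Cd44 and Itgb1, lower (median 0.20). Tgfbr3, the TGF-beta co-receptor betaglycan, rose from 40.9 to 109 CPM (1.41 ± 0.08, edgeR adjusted p = 7.91e-07). Lrp1, an endocytic receptor for decorin, rose from 2296 to 4545 CPM (0.99 ± 0.07), Tgfbr2 by 0.55 ± 0.04 and Egfr, a signalling receptor of decorin, by 0.43 ± 0.04.

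All 13 genes listed as TGF-beta targets passed the test but in both directions, 5 higher and 8 lower (median -0.32). Pmepa1 (0.89 ± 0.08), Acta2 (0.72 ± 0.08) and Tgfbi (1.82 ± 0.22) rose, as did Cyr61 and Ski.

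Of 15 genes for proteases that cut SLRPs and for their inhibitors, 11 were higher and 2 lower (median 0.63). The proteases Htra1 (1.30 ± 0.05, edgeR adjusted p = 1.3e-07), Mmp2 (1.46 ± 0.07) and Adamts1 (1.37 ± 0.07) rose. The 2 lower genes were the metalloproteinase inhibitors Timp3 (-1.34 ± 0.09) and Timp1. Another inhibitor of this family, Timp2, was among the 11 higher genes (0.40 ± 0.06, edgeR adjusted p = 0.000453), so the inhibitors went in both directions. Among 15 other proteoglycans, 7 were higher and 4 lower (median 0.29), with Vcan (versican, 1.24 ± 0.06), Srgn (serglycin, 2.21 ± 0.15) and Sdc1 (syndecan, 0.78 ± 0.07) up and Cspg4 down (-1.79 ± 0.11). These lists, drawn up with earlier results known, are described by their counts beside the 47.3% of all tested genes that passed.

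**Figure D5:**
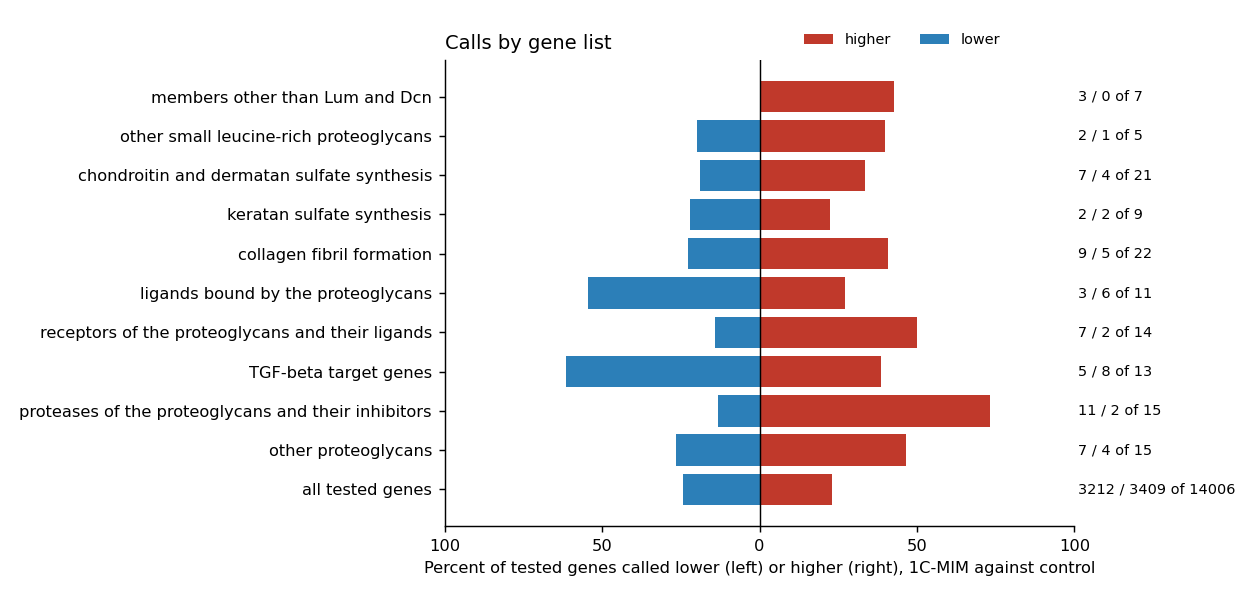
Percent of the tested genes of each list called higher (right) or lower (left) in 1C-MIM against control by edgeR at an adjusted p below 0.05, with the numbers higher and lower of those tested on the right. The list of proteases and their inhibitors has 11 higher and 2 lower of 15, and the TGF-beta target list 5 higher and 8 lower of 13.

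Muscle markers were present in every library, and markers of other cell types went in both directions. Marker calls, here and below, stand beside 47.3% of all tested genes called in 1C-MIM against control, 22.9% higher and 24.3% lower. The muscle fibre markers Myog, Ckm, Ttn and Myh3 were detected throughout, with the 12 fibre markers summing to 4181 to 10270 CPM in control, 6917 to 8942 in 1C-MIM and 5123 to 8717 in scramble, and 2 of 12 higher in 1C-MIM. Of 7 myoblast markers, 5 were higher and 1 lower, and their sum was 787 to 789 CPM in control, 1100 to 1142 in 1C-MIM and 812 to 856 in scramble. Of 11 fibroblast markers 9 were tested, with 6 higher and 2 lower in 1C-MIM against control, and sums of 1114 to 1205, 1352 to 1460 and 1217 to 1255 CPM. Pdgfra rose by 0.84 ± 0.06, and Dpt and Pi16 rose as well. Ly6a (-0.46 ± 0.14, edgeR adjusted p = 0.0215) and Mfap5 (-0.49 ± 0.10, adjusted p = 0.00204) were the 2 lower fibroblast markers, and Tcf21, another defining fibroblast gene, was at 0 in every library.

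The part of the fibroblast and myoblast markers in the higher levels of Lum, Dcn, Aspn and Ogn was not tested. Of 5 tendon markers 2 were tested and both were lower in 1C-MIM, with sums of 98.8 to 107, 74.6 to 80.5 and 92.8 to 98.7 CPM. Of 8 cartilage markers 2 were tested with no call (sums of 53.4 to 69.6, 62.0 to 65.4 and 59.0 to 63.3 CPM), and Matn1 was at 0 in every library. Of 7 bone markers 5 were tested, 1 higher and 2 lower, with sums of 108 to 114, 149 to 179 and 115 to 124 CPM. The higher one was Phex (log2 fold change 1.59 ± 0.13). The lower ones were the defining markers Sp7 (-3.37 ± 0.55) and Bglap (-1.87 ± 0.69), with at most 20 counts in a control library. The sums of the adipocyte, endothelial and macrophage lists stayed below 9 CPM, with Cidec and Emr1 at 0 in every library. Of these 3 lists, only the endothelial one held a called gene, Tek.

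Library totals were 29.0 to 33.2 M counts with 1 transcript a gene. Replicates differed by more than counting error (chi-square per degree of freedom 3.30 to 47.9), and control replicate 1 stood farthest from its group (43.1 and 47.9, against 7.67 between the other two). The libraries numbered 1 also had the highest levels of the fibre genes Ttn and Myh3 in each group. Leaving out those 3 libraries kept Aspn, Ogn and Omd among the genes called higher against control.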

How the data were processed

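Whole-transcriptome RNA-seq of 9 C2C12 libraries was analysed. Per the file headers, the deposited tables list TPM, FPKM and count for 33984 transcripts, the count being a whole number that the authors did not normalize. FPKM, which the authors scaled by length and depth, was not tested, and the authors' TPM served only to order levels between genes. Per the submitters' processing notes, the tools (alphabetically) were bedtools 2.30.0, DESeq2 1.28.0, featureCounts, Picard 2.27.4, Salmon 1.5.2, SAMtools 1.15.1, STAR, StringTie 2.2.1, Subread 2.0.1 and Trim Galore 0.6.7, with GRCm39. The sources used here do not state their roles or any use of strand.

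For the 5261 symbols with several transcripts, the transcript with the highest mean count stood for the gene. Counts were tested with edgeR 4.0.16 (quasi-likelihood test, robust, TMM, filterByExpr) in R 4.3.3, with 3 groups in 1 model and Benjamini-Hochberg adjustment over 14006 genes. Calls needed an adjusted p below 0.05. The 10057 untested genes held 0.0280% of counts, and the common biological coefficient of variation was 0.0842. The test was tried on simulated counts. Group members, gene lists and tests were chosen with earlier results of these data known. Named are the 10 genes, their family, their neighbours, defining markers, up to 4 genes of smallest p per list (1 is not reported here) and the 5 genes most like Lum and Dcn. Other called genes were named after their values were seen, to complete counts.

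Alternatives covered scaling, filters, DESeq2 1.42.0, limma-voom 3.58.1, threshold, transcript choice and left-out libraries. For scramble against control, deviations of same-numbered libraries correlated at 0.481, 0.214 and 0.168, each over 0.1, so the numbers were taken to pair those libraries on this evidence from the data alone. The labels do not say what a number marks. In the 1C-MIM comparisons not every correlation was over 0.1, so the numbers were not taken to pair those libraries. The main fit had no block for the replicate number in any comparison, also not in scramble against control. A fit with that block is given below.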

Additional observations from a re-analysis of the deposited data

How the results depend on the processing

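Over 22 alternatives, Aspn, Ogn and Omd stayed higher and past the threshold in 1C-MIM against control. Member counts for the 1C-MIM comparisons leave out Lum and Dcn, which carry no test there. Those for scramble against control include them. With 1 library left out, 3 to 4 of the other 7 tested members were called in 1C-MIM against control and 1 to 4 against scramble. The share of all tested genes called in these fits was 38.8% to 50.9% against control and 37.2% to 52.9% against scramble. These member counts are thus not a result about the set. For scramble against control, 0 to 1 member was called. For scramble against control, where edgeR called 0 genes, DESeq2 called 30 genes, among them 2 members and 1 gene of the pathway lists, and leaving out the 3 libraries numbered 1 gave 96 genes, 4 members and 8 pathway list genes; leaving out 1 library gave 0 to 3 genes. At an adjusted p below 0.01, 1 of the other 7 members was called in 1C-MIM against scramble, with 31.6% of all genes called.

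With the replicate block, 5 of the 7 tested members other than Lum and Dcn were called in 1C-MIM against control and 6 against scramble. For scramble against control 0 members were called, and the block changed no call. All genes called with the block were 7397 (52.8%), 7309 (52.2%) and 0. Under the block Fmod (-0.37 ± 0.08, edgeR adjusted p = 0.0028) and Podn (0.88 ± 0.30, 0.0276) also passed against control, and Prelp (-0.16 ± 0.04, 0.00846) and Omd (-0.15 ± 0.05, 0.0345) against scramble. Correlations of same-numbered deviations were 0.194, 0.0841 and 0.104 for 1C-MIM and control. For 1C-MIM and scramble they were 0.153, 0.035 and 0.0279. In those comparisons 4 of 6 and 3 of 6 libraries correlated best with their own number. For scramble and control 4 of 6 libraries did so.

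Prelp in 1C-MIM against control, at 0.00, changed sign without meeting the threshold under upper-quartile scaling (-0.022), library size alone (-0.0469), no filter (-0.00253), at least 1 CPM in 3 libraries (-0.00934), limma-voom (-3.91e-05), the 2 groups alone (-0.00134), the replicate block (-0.000232), the libraries numbered 1 left out (-0.0162), and the sum (-0.00302) or mean (-3.26e-05) over transcripts, and ranged from -0.0744 to 0.078 without single libraries. Optc, at 0.09, was at -0.494 without the libraries numbered 1 and ranged from -0.298 to 0.394 without single libraries. The cause was not tested. Depth limits Podn, Optc and Chad, with at most 39 counts in a library.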
